A study of Mus musculus with 3 samples.

Results

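The 9 genes below, widely read as marks of alternatively activated macrophages, were followed through the brain after traumatic brain injury (TBI): Arg1, Mrc1, Chil3, Ccl24, Mgl2, Clec10a, Cd163, Ccl17 and Ccl22. They were chosen by name, 9 of the 55357 genes listed in each matrix, and all 9 had unique molecular identifier (UMI) counts in at least 1 library. Single cells came from the left perilesional brain of male C57BL/6 mice aged 6 to 8 weeks, with 1 droplet library for each of 3 groups. The sham group is given no further label. The TBI+PBS group had TBI and then phosphate-buffered saline for 3 days. The TBI+IL-25 group had TBI and interleukin-25 (IL-25), given at 1 µg a mouse, first inside 30 minutes of injury and then once a day over 3 days. The labels do not state how the injury was made or how many animals went into a library. They name no difference between the 2 injured groups other than the agent. With 1 library a group no difference has a replicate check, so no test was run. Values are given with 95% intervals that cover counting error only, and because UMIs of 1 cell are not independent those intervals are too narrow.

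Macrophages take on the alternative state when IL-4 or IL-13, made by type 2 lymphoid cells, mast cells and others, bind receptors that contain IL-4Rα and switch on the transcription factor STAT6. IL-25 acts upstream, on cells that make IL-4, IL-5 and IL-13. Arg1 (arginase 1) turns arginine into ornithine and urea, and Chil3 (Ym1) is a secreted chitinase-like protein. Mrc1 (CD206) is a mannose receptor, Mgl2 and Clec10a are the 2 mouse C-type lectins of the macrophage galactose lectin pair, and Cd163 is the scavenger receptor for haemoglobin bound to haptoglobin. Ccl24 (eotaxin 2) attracts CCR3-bearing cells such as eosinophils, and Ccl17 and Ccl22 are the ligands of CCR4 on T cells. Outside disease, Mrc1 and Cd163 mark the macrophages of the brain borders, Mgl2 and Clec10a are found on border macrophages and dendritic cells, and Ccl17 and Ccl22 are made mostly by dendritic cells.

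The stretch before the start site is shown for the genes on which the results turn, so that their known regulators can be set beside the sequence: the receptors Mrc1 and Mgl2, the effector Chil3 and the neighbouring chemokine genes Ccl17 and Ccl22. Windows are the 250 bases before the start from RefSeq (GRCm38.p6, 5′ to 3′ on the strand of the gene), and 6 of the 9 genes had an entry. They lie at chr2:14229164-14229413 (plus strand) for Mrc1, chr11:70130107-70130356 (plus) for Mgl2, chr3:106167565-106167814 (minus) for Chil3, chr8:94810203-94810452 (plus) for Ccl17 and chr8:94745434-94745683 (plus) for Ccl22. Capitals mark matches, on either strand, to a STAT6 site (TTCNNNNGAA), a general STAT site (TTCNNNGAA) or the core of the myeloid factor PU.1 (GAGGAA, which reads TTCCTC on the opposite strand).
Mrc1: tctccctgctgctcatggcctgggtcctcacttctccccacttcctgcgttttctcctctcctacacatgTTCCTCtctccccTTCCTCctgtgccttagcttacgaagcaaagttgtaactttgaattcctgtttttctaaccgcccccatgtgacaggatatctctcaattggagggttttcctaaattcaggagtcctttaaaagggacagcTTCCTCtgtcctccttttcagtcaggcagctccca
Mgl2: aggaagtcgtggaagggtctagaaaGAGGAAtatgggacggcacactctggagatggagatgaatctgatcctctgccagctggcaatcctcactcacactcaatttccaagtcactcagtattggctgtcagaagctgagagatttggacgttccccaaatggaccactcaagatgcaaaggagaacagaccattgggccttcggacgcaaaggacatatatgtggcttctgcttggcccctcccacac
Chil3: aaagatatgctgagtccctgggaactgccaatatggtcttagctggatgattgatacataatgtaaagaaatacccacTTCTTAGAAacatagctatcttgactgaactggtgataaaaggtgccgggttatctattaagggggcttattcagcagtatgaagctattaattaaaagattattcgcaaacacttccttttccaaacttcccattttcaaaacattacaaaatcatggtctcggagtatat
Ccl17: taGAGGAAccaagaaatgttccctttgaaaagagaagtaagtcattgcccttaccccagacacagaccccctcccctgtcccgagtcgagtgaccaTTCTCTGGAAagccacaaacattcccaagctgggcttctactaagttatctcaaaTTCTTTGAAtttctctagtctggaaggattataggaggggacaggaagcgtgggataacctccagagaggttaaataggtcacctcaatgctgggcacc
Ccl22: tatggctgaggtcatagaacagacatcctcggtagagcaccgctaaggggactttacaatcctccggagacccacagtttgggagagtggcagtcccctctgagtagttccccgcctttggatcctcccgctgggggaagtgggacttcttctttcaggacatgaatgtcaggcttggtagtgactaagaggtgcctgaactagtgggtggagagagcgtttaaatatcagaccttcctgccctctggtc
Ccl17 held all 3 patterns, with TTCNNNNGAA 154 to 145 bases before the start, TTCNNNGAA 99 to 91 bases before it and GAGGAA 248 to 243 bases before it. Its neighbour Ccl22, whose start lies 64.8 kb away on chromosome 8, held none of them in this window, and neither did Cd163. Chil3 had 1 TTCNNNGAA, Mgl2 1 GAGGAA and Mrc1 3 copies of GAGGAA on the opposite strand. Over 32851 windows of the same length, 5.85% held TTCNNNNGAA, 7.02% TTCNNNGAA and 23.3% GAGGAA. A match is a string of letters and not a measured binding site. Arg1, Ccl24 and Clec10a are named only.

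The libraries held 39536447 (sham), 58148289 (TBI+PBS) and 61372408 (TBI+IL-25) UMIs over 8939, 10643 and 14222 barcodes, of which 8710, 10299 and 13532 were kept as cells. Of all barcodes before filtering, 24 to 39 sequences were shared between any 2 libraries. Among the cells, 2 macrophage-like and 88 microglia-like ones had a barcode found in another library. Leaving such cells out moved none of the 21 values recomputed beyond its interval. Ribosomal RNA genes took 0.0369%, 0.0450% and 0.803% of UMIs in sham, TBI+PBS and TBI+IL-25. Clustering without the 9 genes gave a monocyte/macrophage-like class of 10, 248 and 106 cells (0.115%, 2.41% and 0.783% of kept cells; median 5344, 9634 and 5546 UMIs). The microglia-like class held 4999, 4596 and 5533 cells (median 3917, 4746 and 4730 UMIs). In the injured libraries all 13 monocyte/macrophage markers occurred in at least 20% of the macrophage-like cells, and their summed level was 9758 (TBI+PBS) and 10592 (TBI+IL-25) CPM, counts per 1000000 UMIs of the class or library. In microglia-like cells that sum was 149 and 109 CPM. The 12 microglia markers summed to 1496 and 1635 CPM in macrophage-like cells of the 2 injured libraries, against 28040 and 20043 CPM in microglia-like cells.

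Of the 9 genes, 7 had most of their UMIs in the monocyte/macrophage-like class, which also takes in dendritic cell-like cells described below, and Mrc1 and Ccl24 were shared with microglia-like cells. Over all libraries, monocyte/macrophage-like cells held 97.7% of Arg1 UMIs, 97.9% of Chil3, 96.5% of Ccl17, 90.2% of Ccl22, 80.7% of Mgl2, 80.5% of Clec10a and 71.1% of Cd163. Of the remaining Cd163 UMIs, most lay in cells that are neither macrophage-like nor microglia-like (26.5% of the total). Mrc1 had 43.5% of its UMIs in macrophage-like and 53.1% in microglia-like cells, and Ccl24 41.9% and 55.7%. The place of Mrc1 and Ccl24 differed by library. In sham, 88.8% of Mrc1 and 96.2% of Ccl24 UMIs were in microglia-like cells, whereas in TBI+PBS 51.7% and 77.5% were in macrophage-like cells. In TBI+IL-25 the macrophage-like share was 59.6% for Mrc1 and 40.2% for Ccl24. Clec10a and Cd163 also differed by library: of their 13 and 17 sham UMIs, 61.5% and 64.7% lay in other classes, against 9.52% and 13.5% in TBI+PBS.

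**Figure D1:**
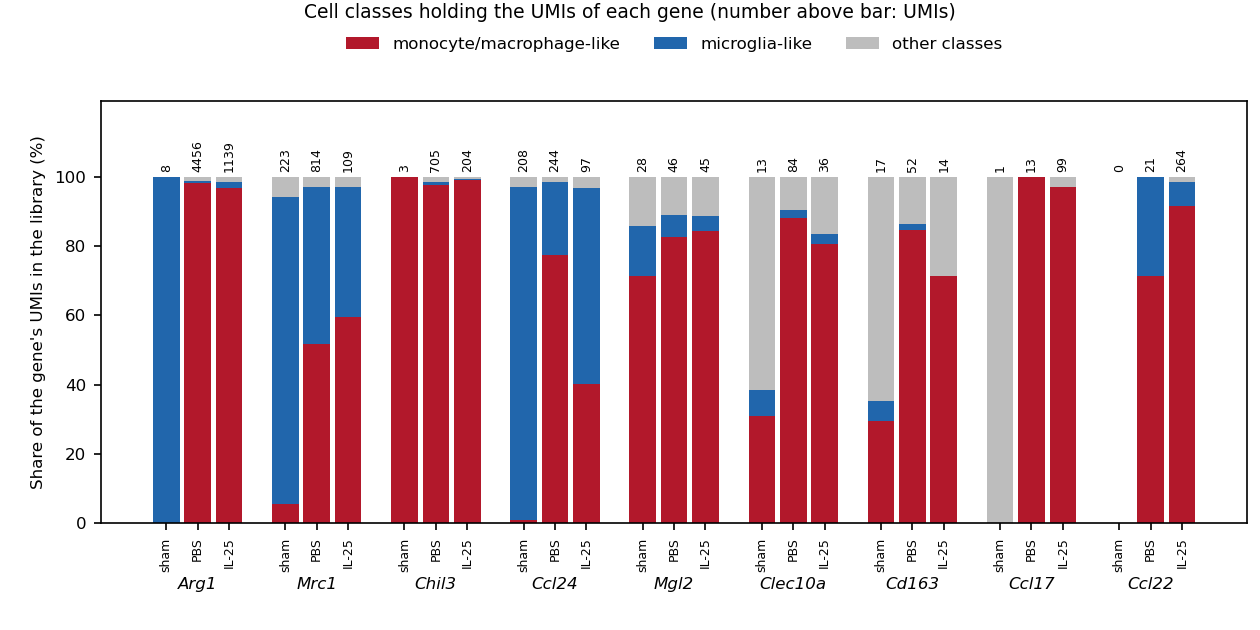
Share of each gene's UMIs, in percent, that lay in monocyte/macrophage-like, microglia-like and all other cells, for each library (vertical axis; 1 bar per gene and library; PBS and IL-25 stand for the injured libraries, and the number above a bar is the gene's UMIs). Arg1 and Chil3 of TBI+PBS are almost wholly macrophage-like (98.1% and 97.6%), while sham Mrc1 and Ccl24 are mostly microglia-like.

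Summed over all kept cells, Arg1 and Chil3 were almost absent from sham brain and high after injury. Arg1 had 8, 4456 and 1139 UMIs in sham, TBI+PBS and TBI+IL-25, or 0.211, 80.7 and 20.3 CPM. Chil3 had 3, 705 and 204 UMIs (0.0792, 12.8 and 3.63 CPM). TBI+PBS exceeded sham 382-fold for Arg1 (interval 194 to 885) and 161-fold for Chil3 (54.9 to 783), and TBI+IL-25 lay between the other libraries for both genes. In such sums over all cells, fewer cells of a type and less RNA per cell cannot be told apart.

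From sham to TBI+PBS the receptors differed less than the effectors. Mrc1 had 223, 814 and 109 UMIs (5.89, 14.7 and 1.94 CPM), Clec10a 13, 84 and 36 UMIs (0.343, 1.52 and 0.641 CPM) and Cd163 17, 52 and 14 UMIs (0.449, 0.942 and 0.249 CPM). All 3 receptors were highest in TBI+PBS, at 2.50-fold (2.16 to 2.92), 4.43-fold (2.46 to 8.66) and 2.10-fold (1.19 to 3.87) the sham level. Macrophage-like cells made up 0.115% of kept cells in sham and 2.41% in TBI+PBS. Within that class none of the 3 receptors was above the sham level, as given below. Mgl2 was about level, with 28, 46 and 45 UMIs (0.740, 0.833 and 0.801 CPM). Some reads of Mgl2 and Clec10a could come from either gene, since 15.5% of the 30-base stretches at the 3′ ends of Mgl2 transcripts also occur in Clec10a. For Chil3 and its neighbour Chil4 that share is 12.7%, and Chil4 had 0 UMIs in every library.

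The chemokines split. Ccl24 had 208, 244 and 97 UMIs (5.49, 4.42 and 1.73 CPM) and was about as high in sham as in TBI+PBS (ratio 0.804, 0.666 to 0.972). Ccl17 had 1, 13 and 99 UMIs (0.0264, 0.235 and 1.76 CPM) and Ccl22 0, 21 and 264 UMIs (0, 0.380 and 4.70 CPM). Ccl17 and Ccl22 were thus highest in TBI+IL-25, where 6 of the other 7 genes were below TBI+PBS by 2-fold or more. Ccl22 in TBI+PBS was at least 4.80-fold above sham, taking 3 UMIs as the limit that a count of 0 allows.

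Counted together, 6 of the 8 members with at least 20 UMIs were at least 2-fold higher in TBI+PBS than in sham, against 8.62% of all genes, and 0 of 8 were 2-fold lower, against 6.21%. The members' median log2 ratio was 1.79, beside -0.11 over the 20124 genes measured. From TBI+PBS to TBI+IL-25, 2 of 9 were at least 2-fold higher (5.50% of all genes) and 6 of 9 at least 2-fold lower (9.40% of all genes). The 6 lower ones were Arg1 (0.251, 0.235 to 0.268), Mrc1 (0.132, 0.107 to 0.161), Chil3 (0.284, 0.242 to 0.333), Ccl24 (0.391, 0.306 to 0.496), Clec10a (0.421, 0.277 to 0.629) and Cd163 (0.265, 0.135 to 0.485). The higher ones were Ccl17 (7.48, 4.18 to 14.6) and Ccl22 (12.4, 7.92 to 20.3), and Mgl2 was at 0.961 (0.623 to 1.48). Beside these ratios stands the share of macrophage-like cells, 2.41% of kept cells for TBI+PBS against 0.783% for TBI+IL-25.

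**Figure D2:**
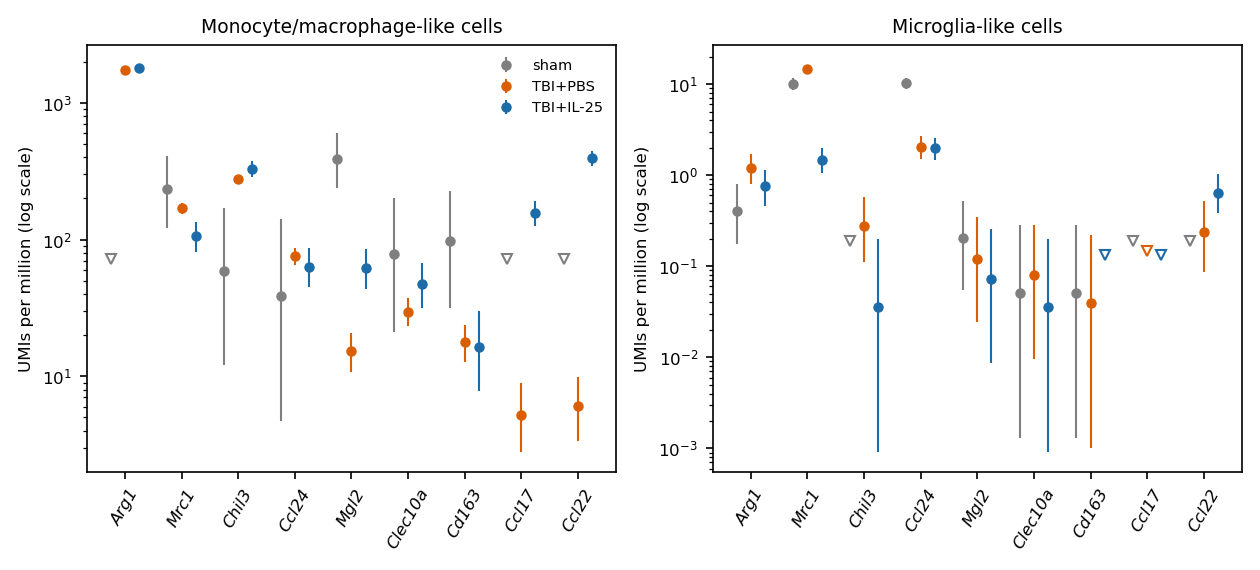
Level of each gene in CPM (UMIs per 1000000; vertical axis, log scale) by library in monocyte/macrophage-like cells (left) and microglia-like cells (right), with exact Poisson 95% intervals that cover counting error only; open triangles mark the upper bound where a library had 0 UMIs. In macrophage-like cells Arg1 of the injured libraries lies close together (1755 and 1791 CPM) and Ccl22 far apart (6.02 and 394 CPM).

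Within the macrophage-like class the effectors were nearly equal in the injured libraries. Arg1 had 4372 UMIs in TBI+PBS cells, 1101 in TBI+IL-25 cells, which is 1755 and 1791 CPM, a ratio of 1.02 (0.954 to 1.09). Chil3 had 688 and 202 UMIs (276 and 329 CPM; ratio 1.19, 1.01 to 1.39). In the 10 sham cells of the class Arg1 had 0 UMIs and Chil3 3. The level per UMI of the class was thus about equal in the injured libraries for Arg1, and the gap seen over all cells was not present inside the class.

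Fewer macrophage-like cells held Arg1 in TBI+IL-25. A UMI of Arg1 was found in 62.1% (154 of 248) of the TBI+PBS cells and 42.5% (45 of 106) of the TBI+IL-25 cells. With every cell thinned to 1000 UMIs the shares were 48.8% and 33.7%. The median in positive cells was 16.5 and 15 UMIs and a maximum of 127 and 133. Astrocyte-like cells, which should lack Arg1, held a UMI of it in 0%, 0.420% and 0.150% of cells of sham, TBI+PBS and TBI+IL-25 (median 4511, 4328 and 2957 UMIs), far below the macrophage-like share.

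Among the receptors and Ccl24, summed over the macrophage-like class, Mgl2 stood higher in TBI+IL-25 and Mrc1 lower. Mrc1 had 421 UMIs in TBI+PBS against 65 in TBI+IL-25 (169 and 106 CPM), a ratio of 0.626 (0.474 to 0.814). Mgl2 had 38 UMIs in each, which is 15.3 and 61.8 CPM and a ratio of 4.05 (2.52 to 6.53), and these came from 14 and 8 cells. The Mgl2 ratio was 2.00 without the sub-clusters that carry microglia or astrocyte markers, 7.24 without macrophage-like cells with 10 or more microglia marker UMIs, and 2.50 as a mean over cells. The filter on microglia marker UMIs left 156 of the 248 TBI+PBS and 93 of the 106 TBI+IL-25 cells. It cuts at a fixed count, and the TBI+PBS cells were deeper (median 9634 against 5546 UMIs). Clec10a had 74 and 29 UMIs (ratio 1.59, 0.996 to 2.47), Cd163 44 and 10 (0.921, 0.413 to 1.86) and Ccl24 189 and 39 (0.836, 0.577 to 1.19). The intervals of Clec10a, Cd163 and Ccl24 include 1. The Ccl24 ratio changed side, to 1.60, without macrophage-like cells with 10 or more microglia marker UMIs. In the 10 sham cells the receptors were present, with 12 UMIs of Mrc1, 20 of Mgl2, 4 of Clec10a and 5 of Cd163. Mgl2 was at 390 CPM in these few cells, and TBI+PBS was at 0.0391 of that level (0.0222 to 0.0710). The same ratio was 0.723 for Mrc1 (0.409 to 1.41), 0.381 for Clec10a (0.143 to 1.44) and 0.181 for Cd163 (0.0721 to 0.586). The intervals of Mrc1 and Clec10a include 1.

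Ccl17 and Ccl22 carried the largest ratios of the 9 genes in this class. Ccl22 had 15 UMIs in TBI+PBS against 242 in TBI+IL-25 (6.02 and 394 CPM; ratio 65.4, 38.9 to 119), and Ccl17 had 13 and 96 UMIs (5.22 and 156 CPM; ratio 29.9, 16.7 to 58.2). Those UMIs came from 4 and 8 cells for Ccl22 and from 4 and 7 cells for Ccl17. The Ccl22 ratio was 35.3 without macrophage-like cells with 10 or more microglia marker UMIs. In the class as a whole, 3 of 9 members were at least 2-fold higher in TBI+IL-25 (Mgl2, Ccl17 and Ccl22), against 4.67% of the 8820 genes measured, and 0 of 9 were 2-fold lower, against 9.57%. The median log2 ratio was 0.25 for the members and -0.09 for all genes.

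The class was not uniform, and the 9 genes lay in different cells of it. It was sub-clustered together with 59 neutrophil-like cells, again without the 9 genes, into 10 sub-clusters. Arg1 and Chil3 marked 3 of them, led otherwise by Fn1 and Vcan (90 cells), by Ccl7 and Pdpn (79 cells) and by Pf4, Ccl7 and Spp1 (63 cells). These held Arg1 in 68.9%, 88.6% and 87.3% of cells and Chil3 in 42.2%, 39.2% and 58.7%, and had 24.8%, 46.0% and 23.3% of the Arg1 UMIs of the class. None passed the naming rule: the best lists had 5 of 13 and 7 of 13 monocyte/macrophage markers and 5 of 11 border-associated macrophage markers. Chil3 without Arg1 was found in a small sub-cluster led by Ly6a2 and Hp (19 cells; Chil3 in 47.4%, Arg1 in 0). Chil3 was at 1280 CPM there, from 9 cells, against 386, 348 and 258 CPM in the 3 sub-clusters with Arg1. With cells thinned to 1000 UMIs the Chil3 share was 38.9% there, against 17.2%, 21.5% and 19.4%. The neutrophil-like sub-cluster (51 cells) held none of the 9 genes.

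The receptors and Ccl24 lay together in a border-associated macrophage-like sub-cluster of 26 cells with 9 of 11 markers of that type. Mrc1 was in 92.3% of its cells, Ccl24 in 53.8%, Clec10a and Cd163 in 50% each and Mgl2 in 42.3%, while Arg1 was in 3.85% and Chil3 in 0. These 26 cells held 53.6% of the Mrc1 UMIs of the class, 58.3% of Ccl24, 66.1% of Cd163, 36.5% of Mgl2 and 36.4% of Clec10a. Sham gave 3 of them, TBI+PBS 18 and TBI+IL-25 5. Mrc1 also occurred in 44.4% of the Pf4, Ccl7 and Spp1 cells, the 1 sub-cluster in which Arg1 and Mrc1 were both frequent.

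Clec10a and Mgl2 each had a second place. Clec10a was in 40.5% of 37 cells led by Klrd1 and Cox6a2, which carried 4 of 9 conventional dendritic cell markers (Flt3, Zbtb46, Cd209a and Wdfy4) and stayed unnamed. They held 48.6% of its UMIs. Mgl2 was in 32.4% and Mrc1 in 52.9% of 34 cells led by Ccl12 and Cx3cr1, in which all 12 microglia markers were present. Those cells held 53.1% of the Mgl2 UMIs and made up 4.84% of the TBI+PBS and 15.1% of the TBI+IL-25 class. The part of the microglia markers in the Mgl2 ratio was not tested beyond the values without these cells given above. A last sub-cluster of 13 cells with 10 of 10 astrocyte markers held Arg1 in 30.8% and Chil3 in 30.8% of cells.

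Ccl17 and Ccl22 were genes of 11 migratory dendritic cell-like cells. This sub-cluster had 7 of 10 markers of the type, with Ccr7 and Fscn1 among its leading genes, and held 98.8% of the Ccl22 and 90.8% of the Ccl17 UMIs. All 11 cells had Ccl22, 72.7% had Ccl17 and none had any of the other 7 genes. Sham gave 0 of them, TBI+PBS 3 and TBI+IL-25 8, or 1.21% (0.25 to 3.49) and 7.55% (3.31 to 14.3) of the macrophage-like class of the injured libraries. Ccl22 in them was 12 UMIs in the 3 TBI+PBS cells and 242 in the 8 TBI+IL-25 cells. Without this sub-cluster 3 TBI+PBS UMIs and 0 TBI+IL-25 UMIs of Ccl22 remained, so the class-wide ratio is a statement about these 11 cells.

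**Figure D3:**
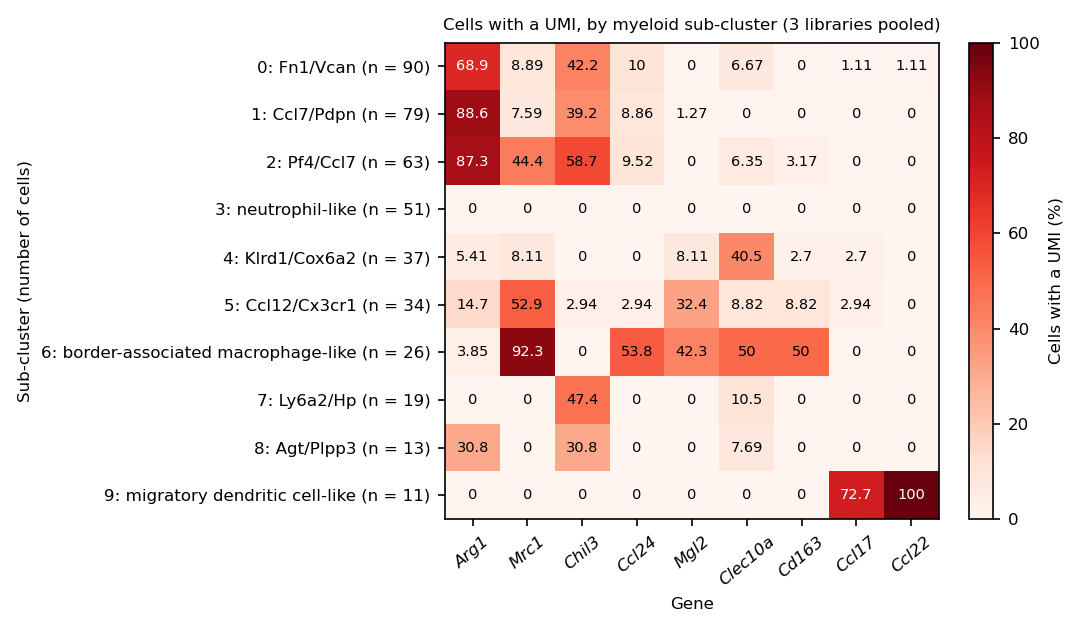
Share of cells with at least 1 UMI of each gene (colour, percent) in the 10 sub-clusters of macrophage-like and neutrophil-like cells, with the number of cells. Arg1 and Chil3 are both frequent in 3 sub-clusters, and Chil3 without Arg1 in the one led by Ly6a2 and Hp. The receptors and Ccl24 are frequent in the border-associated macrophage-like one, and Ccl17 and Ccl22 in the migratory dendritic cell-like one.

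The makeup of the class differed between the injured libraries. The Pf4, Ccl7 and Spp1 cells made up 24.2% of the TBI+PBS but 2.83% of the TBI+IL-25 macrophage-like cells, the Ccl7 and Pdpn cells 25.8% and 14.2%, and the Fn1 and Vcan cells 22.2% and 31.1%. Inside a sub-cluster Arg1 was not level. It had 765 UMIs in 56 TBI+PBS cells and 591 in 34 TBI+IL-25 cells of the Fn1 and Vcan sub-cluster (1368 and 2780 CPM; ratio 2.03, 1.82 to 2.27). In the Ccl7 and Pdpn cells it had 2115 and 405 UMIs (3421 and 4572 CPM; ratio 1.34, 1.20 to 1.49). In the Pf4, Ccl7 and Spp1 cells it had 1255 and 22 UMIs (1906 and 2457 CPM), the latter from 3 cells. In the 13 cells with astrocyte markers it had 127 UMIs from 1 TBI+PBS cell and 80 from 3 TBI+IL-25 cells (1873 and 2016 CPM). The CPM of Arg1 was thus higher in TBI+IL-25 in each of these 4 sub-clusters, with overlapping intervals in the last 2 of them. The class as a whole was near equal. Shares of cells with Arg1 differed less, at 67.9% and 70.6% in the Fn1 and Vcan cells and 87.5% and 93.3% in the Ccl7 and Pdpn cells. The 10 cells with most Arg1 held 23.7% of its TBI+PBS and 57.5% of its TBI+IL-25 UMIs in the class. In the Ccl12 and Cx3cr1 cells, with 1.97% of the Arg1 UMIs, it had 107 UMIs in 12 TBI+PBS cells and 1 in 20 TBI+IL-25 cells. Ccl24 in the Fn1 and Vcan cells had 4 UMIs in TBI+PBS, from 1 cell, and 35 in TBI+IL-25, from 8 cells (ratio 23.0, 8.23 to 89.2), of which 1 cell gave 22. Mrc1 was about level in the 3 sub-clusters where it was most frequent. In TBI+PBS and TBI+IL-25 it was at 1977 and 1871 CPM in the border-associated macrophage-like cells (18 and 5 cells). It was at 174 and 162 CPM in the Ccl12 and Cx3cr1 cells. In the Pf4, Ccl7 and Spp1 cells it was at 207 and 223 CPM, the latter from 2 UMIs. The part of the makeup in the class ratio of Mrc1 was not tested.

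No macrophage-like cell held more than 5 of the 9 genes. Of 364 macrophage-like cells, 58 had none of the 9 genes, 126 had 1, 129 had 2, 38 had 3, 9 had 4 and 4 had 5. Arg1 and Chil3 went together: Chil3 was in 45.5% of the 154 Arg1-positive TBI+PBS cells and in 19.1% of the Arg1-negative ones, and in 40% and 18.0% in TBI+IL-25. Deeper cells show more of any gene, and after thinning to 1000 UMIs the shares were 16.7% and 11.9% in TBI+PBS and 22.9% and 11.6% in TBI+IL-25. The gap between positive and negative cells was thus smaller at equal depth, above all in TBI+PBS.

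Arg1 and Mrc1 showed no such pairing. Mrc1 was in 24.7% of Arg1-positive and 28.7% of Arg1-negative TBI+PBS cells, and in 11.1% and 23.0% in TBI+IL-25. Thinned, these were 7.50% and 15.1%, and 0% and 13%. The lectins were scarce in Arg1-positive cells: Mgl2 in 0.649% against 13.8% and Clec10a in 4.55% against 20.2% in TBI+PBS, and Mgl2 in 0% against 13.1% and Clec10a in 4.44% against 21.3% in TBI+IL-25. Read the other way, 58.5% of Mrc1-positive TBI+PBS cells held Arg1, beside 62.1% of all TBI+PBS cells of the class. The share in Mrc1-positive cells was 76% without the cells with 10 or more microglia marker UMIs. The Arg1 share of all cells left in that smaller set is not given, so the 76% is no measure of pairing.

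Cd163 and Mgl2 occurred mostly in cells with Mrc1. All 11 Cd163-positive TBI+PBS cells held Mrc1, and 4 of 5 in TBI+IL-25. Of the Mgl2-positive cells 71.4% (10 of 14) held Mrc1 in TBI+PBS and all 8 did in TBI+IL-25. For Clec10a the share with Mrc1 was 42.3% (TBI+PBS) and 33.3% (TBI+IL-25), and in the Klrd1 and Cox6a2 cells, where Clec10a was frequent, Mrc1 was in 8.11%. Ccl24 was in 26.2% of Mrc1-positive and 4.37% of Mrc1-negative TBI+PBS cells. In TBI+IL-25, 8 of 10 Ccl24-positive cells held Arg1 and 2 of 10 Mrc1, against 15 and 17 of 25 in TBI+PBS. Ccl17 and Ccl22 paired with each other: 3 of 4 Ccl22-positive TBI+PBS cells and 6 of 8 in TBI+IL-25 held Ccl17, and over all classes 9 cells held both, every one macrophage-like. In the injured libraries 1 of 7 Ccl17-positive TBI+IL-25 cells also held Mrc1, and no Ccl17- or Ccl22-positive macrophage-like cell held Arg1.

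**Figure D4:**
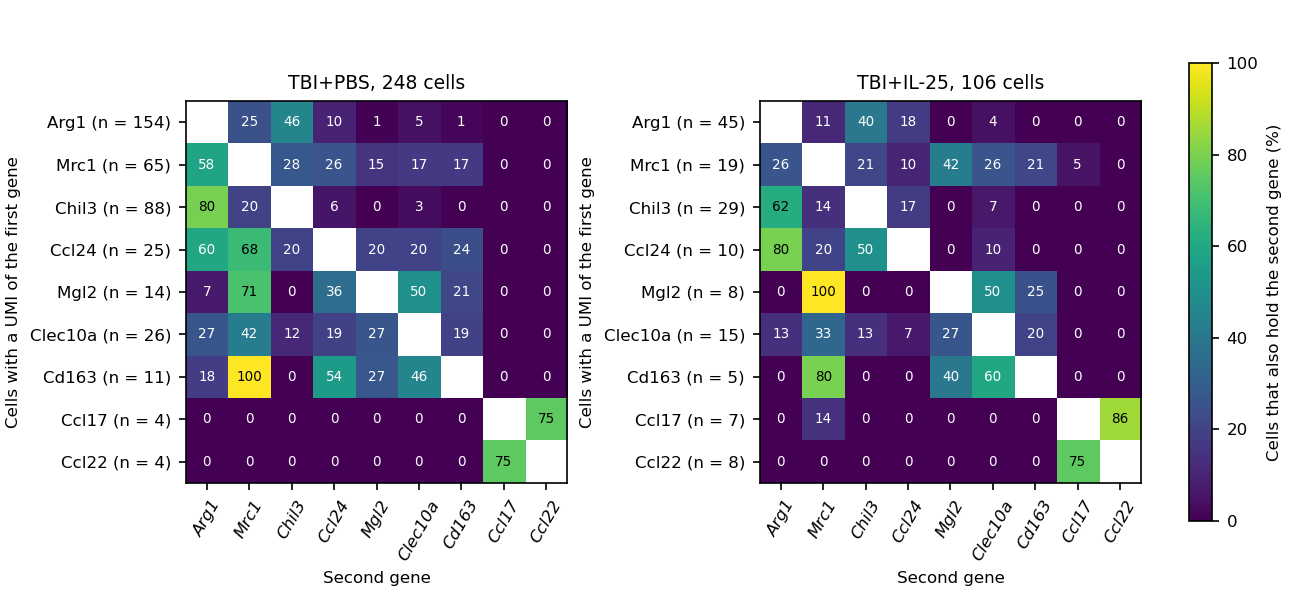
Share of the cells positive for the row gene (percent, in colour) that also held the column gene, among monocyte/macrophage-like cells of TBI+PBS (248 cells) and TBI+IL-25 (106 cells). Cd163 and Mgl2 share most with Mrc1, and Ccl17 and Ccl22 with each other. Arg1 was in 58.5% of Mrc1-positive TBI+PBS cells, beside 62.1% of all 248 cells.

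Microglia-like cells held Mrc1 and Ccl24 in up to 4.26% of cells, and each of the other 7 genes in at most 0.587%. Mrc1 was in 3.40%, 4.26% and 0.669% of microglia-like cells of sham, TBI+PBS and TBI+IL-25, against 0.274%, 0.265% and 0.0299% of astrocyte-like cells at median depths of 4511, 4328 and 2957 UMIs. Thinned to 1000 UMIs the microglia-like shares were 0.795%, 0.882% and 0.112%. Ccl24 was in 3.60%, 1.04% and 0.759%, against 0.183%, 0.0221% and 0.0299% of astrocyte-like cells. Both genes were above the astrocyte-like share in every library.

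In levels, microglia-like Mrc1 was 10.1, 14.7 and 1.47 CPM (198, 370 and 41 UMIs) and Ccl24 10.2, 2.03 and 1.97 CPM (200, 51 and 55 UMIs). Ccl24 was lower in TBI+PBS than in sham (ratio 0.199, 0.143 to 0.272) and alike in the injured libraries (0.971, 0.651 to 1.45). Mrc1 was lower in TBI+IL-25 than in TBI+PBS (0.0998, 0.0704 to 0.138). Its ratio of TBI+PBS to sham was 1.46 (1.22 to 1.74), but 0.978 as a mean over cells. Of the 3 members with 20 UMIs in microglia-like cells of sham and TBI+PBS, 1 was at least 2-fold higher in TBI+PBS (Arg1, 8 and 30 UMIs; 6.90% of 14969 genes) and 1 was 2-fold lower (Ccl24; 7.78% of genes). Between the injured libraries, 1 of 4 was higher in TBI+IL-25 (Ccl22, 6 and 18 UMIs, ratio 2.70, 1.03 to 8.31; 6.42% of 15390 genes) and 1 of 4 lower (Mrc1; 4.65% of genes). The median log2 ratio of all genes was -0.16 and -0.06 in the 2 comparisons. Arg1 in microglia-like cells (0.080%, 0.587% and 0.289% of cells) was close to its astrocyte-like share in the injured libraries and is read as background there. Mgl2, Clec10a and Cd163 were in 0.0400%, 0.0200% and 0.0200% of sham microglia-like cells, below their astrocyte-like shares of 0.122%, 0.244% and 0.335%.

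Much of the TBI+PBS Mrc1 came from 1 microglia-like cluster, high in Spp1 (osteopontin). In it 75 of 570 TBI+PBS cells held Mrc1 (13.2%, 235 UMIs), against 7 of 509 TBI+IL-25 cells (1.38%). Without this cluster the microglia-like ratio was 0.678 for TBI+PBS to sham and 0.203 for TBI+IL-25 to TBI+PBS, so the higher level in TBI+PBS than in sham rests on it. In TBI+PBS 22 cells had 4 or more Mrc1 UMIs, all in this cluster, with 167 UMIs in all. Of these 22 cells, 81.8% held P2ry12 and 90.9% Tmem119, both microglia markers, and none held Lyve1, Cbr2, Ccr2, Arg1, Chil3 or Ccl24. Ms4a7 and F13a1 were each in 1 of the 22 (4.55%), against 1.01% and 0.808% of cells of the cluster without Mrc1. Pf4 was in 31.8% of them, against 5.45% of cells of the cluster without Mrc1, and they were deeper (median 12714 against 8826 UMIs). The part of depth in that difference was not tested.

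In sham, the 170 Mrc1-positive microglia-like cells carried microglia markers as often as the rest. P2ry12 was in 97.6% and Tmem119 in 98.2% of them, and of the border macrophage markers Lyve1, F13a1 and Cbr2 were in 0. Of the same kind of marker, Pf4 was in 1.76% of the positive and 0.207% of the negative cells, and Ms4a7 in 1.18% and 0%. Ccl24 was in 11.2% of Mrc1-positive and 3.33% of Mrc1-negative sham cells, at median depths of 4251 and 3904 UMIs. Co-occurrence was otherwise rare: 14400 of 15128 microglia-like cells had none of the 9 genes and 32 had 2.

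**Figure D5:**
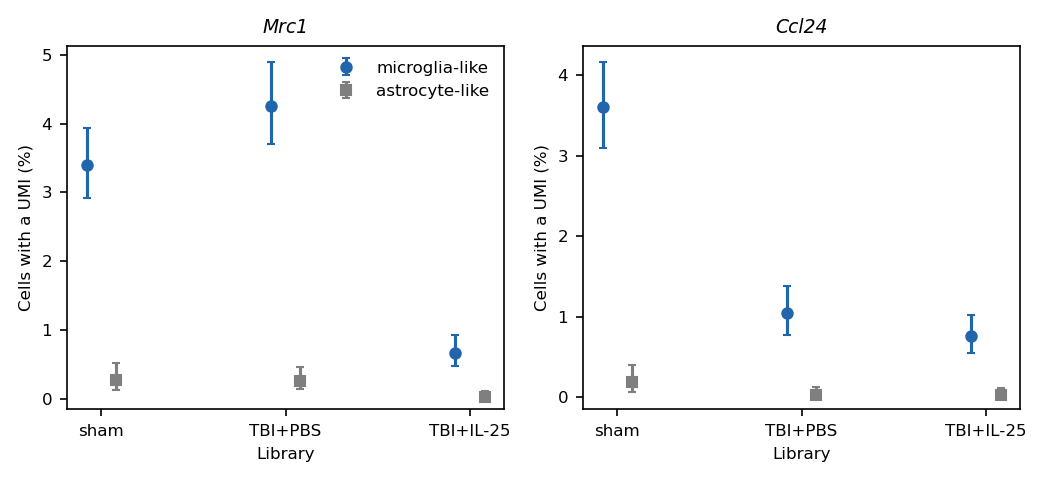
Share of microglia-like cells with a UMI of Mrc1 and Ccl24 (percent, vertical axis) by library (horizontal axis), beside the astrocyte-like share, with exact binomial 95% intervals that cover counting error only. Mrc1 is lowest in TBI+IL-25 (0.669%) and Ccl24 highest in sham (3.60%).

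The genes most like Arg1 and Mrc1 across macrophage-like cells were different sets. Pearson's r of log counts was taken over 248 TBI+PBS and 106 TBI+IL-25 cells for 5495 genes. It is a description over cells that share a library and vary in depth. Nearest to Arg1 were Fn1 (fibronectin, r 0.585 in the TBI+PBS cells, 0.744 in the TBI+IL-25 cells), Thbs1 (thrombospondin 1, 0.595 and 0.582), Ier3, Capg, Spp1, Msr1, Pgam1 and Ctsl. Fn1 and Thbs1 are also markers by which the class was named. Nearest to Mrc1 were Fcrls (0.693 and 0.594), C1qa, Pf4 (0.596 and 0.567), C1qc, Ccl12, C1qb and Trf. Of these, Fcrls is on the microglia marker list and Pf4 on that of border-associated macrophages. Between members, r with Mrc1 was 0.408 and 0.620 for Mgl2 and 0.464 and 0.449 for Cd163, and Arg1 had r of 0.109 and 0.198 with Chil3 and -0.18 in both libraries with Mrc1.

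Other genes of the pathway were read from lists in macrophage-like cells, TBI+IL-25 over TBI+PBS, against the shares of 4.67% and 9.57% of all genes. Of 17 other alternative activation genes 13 had 20 UMIs, and 4 were at least 2-fold higher and 1 lower, with a median log2 ratio of 0.17. Higher were Cd209a (a dendritic cell lectin, 4.05), Socs2 (a STAT feedback inhibitor, 3.13), Pdcd1lg2 (PD-L2, 2.97) and Ear2 (an eosinophil-associated ribonuclease, 2.89), and lower was Cd36 (a scavenger receptor, 0.410). In TBI+PBS and TBI+IL-25, Cd209a had 22 and 22 UMIs, Socs2 70 and 54, Pdcd1lg2 15 and 11, and Ear2 14 and 10. Each of these 4 genes was in at most 12.5% of the macrophage-like cells of either library. Socs2 and Cd209a are also on the dendritic cell marker lists. Retnla, the gene of the alternative activation protein Fizz1, had 0 UMIs in every library, as did Chil4.

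Genes of the signalling pathway were mostly within 2-fold. Of 20 genes of IL-4, IL-13 and IL-25 signalling 11 were measured, 0 at least 2-fold higher and 1 lower, with a median log2 ratio of -0.05. The lower one was Jak3 (0.360, 0.0941 to 0.988), from 45 and 4 UMIs. Il4ra, the receptor chain shared by IL-4 and IL-13, was at 0.550 (0.411 to 0.725), from 427 and 58 UMIs, and so not past 2-fold. The cytokines themselves were close to the limit of detection over all cells: Il4 had 0, 1 and 4 UMIs in sham, TBI+PBS and TBI+IL-25, Il13 0, 0 and 1, and Il25 15, 6 and 24. Il33, an alarmin that acts on the same lymphoid cells, had 2115, 4713 and 12269 UMIs. Of 12 genes of arginine and polyamine metabolism 9 were measured, 0 higher and 1 lower, namely Srm (spermidine synthase, 0.307).

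The last lists were lectins, classical activation genes and chemokine receptors. Of 14 scavenger and lectin receptors 8 were measured, with 1 higher and 1 lower, Cd209a and Clec4n (Dectin-2, 0.286). Of 16 classical activation genes 11 were measured, 3 higher and 1 lower, with a median log2 ratio of 0.42. Higher were Il6 (5.89, from 11 and 16 UMIs), Ccl5 (3.24) and Cd40 (2.17, from 28 and 15 UMIs). Lower was Cxcl10, an interferon-induced chemokine (0.482). Tnf, at 1.97, was just under 2-fold. Summed over the macrophage-like class, members and classical genes thus both had positive medians. Whether single cells held genes of both lists was not tested. The receptors of the chemokines had few UMIs over all cells, 1, 7 and 2 for Ccr4 and 29, 23 and 16 for Ccr3.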

How the data were processed

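The deposited matrices hold raw UMI counts per gene and barcode, not normalized. Version 7.2.0 of Cell Ranger made the TBI+IL-25 matrix and version 7.1.0 the other ones, per the file headers. GRCm39, Seurat 4.4.0, bcl2fastq 5.0.1 and only the later Cell Ranger (7.2.0) stand in the submitters' processing notes. How barcodes were selected is not given in the sources used here. The members, lists and rules were chosen with earlier results of these data known.

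Barcodes were kept with 500 UMIs or more, 300 genes or more and a mitochondrial share of 20% or less. Doublets with a Scrublet score above 0.2, a threshold set after the scores were seen, were removed (2.36%, 2.83% and 4.46% of barcodes). Clustering used 2000 variable genes without the members, 30 components, 15 neighbours and Leiden resolution 1, with no batch integration. Sub-clusters used 15 components. A cluster was named "like" a type from at least 3 markers, each in 20% of its cells and at 2-fold the median over clusters. A sub-cluster also needed more markers of its list present than absent, a rule set after the data were seen.

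UMIs were summed by class and library and given as CPM. Intervals at 95% are exact Poisson for sums, Clopper-Pearson for shares and conditional binomial for ratios. A ratio of members or lists was counted at 20 or more UMIs in both libraries together and past 2-fold. Cells were also thinned to 1000 UMIs. Named genes were the 9 members, the list genes with 20 UMIs, and the 8 most like Arg1 and Mrc1 in cells of both injured libraries, among genes in 10% of them; 1 gene is not reported here. Genes with under 20 UMIs (Il4, Il13, Retnla, Chil4, Ccr4) were named after their values were seen. The tools, Python 3.11.15, NumPy 2.4.6, SciPy 1.17.1, scikit-learn 1.9.0, scanpy 1.11.5, leidenalg 0.10.2, python-igraph 0.11.9 and Matplotlib 3.10.9, were tested on simulated data.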

Additional observations from a re-analysis of the deposited data

How the results depend on the processing

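Of 262 values of 41 results under other settings, 228 stayed within the spread of the reported value, 32 moved and 2 reversed. A ratio counts as reversed where its reported interval lies apart from 1 and the other setting puts it on the other side, so Ccl24 (1.60) and Arg1 (0.875) below, whose intervals include 1, count as moved. The ratio of Mrc1 in microglia-like cells, TBI+PBS to sham, reversed to 0.978 as a mean over cells and to 0.678 without the Spp1-high cluster, a setting chosen after seeing the data. The same 364 cells formed the macrophage-like class at resolutions 0.5 and 2 and with the members among the variable genes.

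With classes set by each cell's marker score, the macrophage-like share of TBI+PBS UMIs was 92.9% for Arg1 and 46.2% for Mrc1. Without macrophage-like cells with 10 or more microglia marker UMIs these shares were 96.8% and 28.0%. The class ratios of TBI+IL-25 to TBI+PBS were then 0.842 for Mrc1, 1.60 for Ccl24, 7.24 for Mgl2 and 35.3 for Ccl22, and 76% of Mrc1-positive TBI+PBS cells held Arg1. Without sub-clusters 5 and 8, those with microglia and astrocyte markers (chosen after seeing the data), the ratios were 1.15 for Arg1, 1.42 for Chil3 and 2.00 for Mgl2. As means over cells they were 0.875 for Arg1, 2.50 for Mgl2 and 0.145 for microglia-like Mrc1, which was 0.203 without the Spp1-high cluster. Thinned to 2000 UMIs, Mrc1 was in 1.88%, 1.64% and 0.256% of microglia-like cells. Arg1-positive TBI+PBS cells held Chil3 in 33.8% with at least 2 UMIs of each and 25.8% thinned to 2000 UMIs, and Mrc1-positive cells held Arg1 in 44.7% and 37.8%. Over all cells, Arg1 was at 0.232 and Chil3 at 0.234 with doublets kept, and Arg1 at 0.276 with size factors. Among genes with at least 100 UMIs, the shares past 2-fold, higher and lower, were 3.04% and 7.05% in all cells, 1.94% and 4.78% in macrophage-like cells and 2.89% and 2.95% in microglia-like cells. The cause of these shifts was not tested.

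Without the migratory dendritic cell-like sub-cluster, Ccl22 had 3 TBI+PBS and 0 TBI+IL-25 UMIs, and no ratio is given. No paired analysis was possible because each group had 1 library, which also leaves no replicate to omit. Group and library cannot be told apart. A gene with no UMI in the 10 sham macrophage-like cells has a share of cells with a UMI of up to 30.8% (Clopper-Pearson), which is no limit on cells expressing it. Shares of cells with a UMI in microglia-like cells are limited by depth and free RNA.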
